A study of Mus musculus with 4 samples.

Results

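Cadherins are the calcium-dependent adhesion proteins of animal cells, and the set described here is their superfamily as it appears in sorted mouse nephron progenitors. Members are the rows of the deposited gene table whose symbol is Cdh followed by digits, begins with Pcdh, or is Fat1 to Fat4, Dchs1, Dchs2 or Celsr1 to Celsr3. They number 102 of 24339 rows. Of these, 43 lie outside the protocadherin gene clusters and 59 belong to the Pcdha, Pcdhb and Pcdhg clusters, which are treated apart because they share a locus. Dchs2 was not analysed here.

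The study compared bulk RNA-seq of kidney mesenchymal nephron progenitors, the embryonic cells that form nephrons, from 2 Cre driver lines. Six2TGC (genotype Six2TGC transgenic) is a BAC transgenic line, and Six2Cre (genotype Six2 Cre/+) is the Six2-T2A-GFP-Cre knock-in, carried on 1 of the Six2 alleles. Both lines make a GFP-Cre fusion protein, cells of both were sorted by FACS for GFP, and no library came from mice without a GFP-Cre allele. Each line has 2 libraries, the labels give no age, and the deposited table is marked E18. Whether replicates are separate animals is not stated in the labels, so p-values measure the spread between these libraries only. That spread may be technical in Six2Cre; the Six2TGC libraries differ in sex-linked RNA, given with Pcdh19, and so are not repeats of 1 RNA sample.

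Classical cadherins join the same or related cadherins on the next cell and hold the actin cytoskeleton through catenins. Type I members include the epithelial and neural cadherins, and type II members are often found on mesenchyme. Protocadherins give weaker and more selective contacts, FAT and DCHS proteins are giant cadherins that bind each other across cell borders, and CELSR proteins carry planar polarity. In the kidney, progenitors change from mesenchyme to epithelium as nephrons form, and this change is known for an exchange of cadherins.

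Of the 43 members outside the clusters, 14 were called higher and 3 lower in Six2TGC. The higher ones were Pcdh7, Cdh6, Cdh4, Pcdh19, Cdh22, Pcdh8, Fat1, Fat4, Celsr1, Fat3, Cdh24, Cdh11, Dchs1 and Celsr2. The lower ones were Cdh16, Cdh3 and Cdh13. Cdh2, Cdh15 and Pcdh18 were tested and not called. The test was limma on log2(FPKM + 1) with Benjamini-Hochberg adjustment over all 11917 genes whose mean over the 4 libraries was at least 1 FPKM, and a call is an adjusted p under 0.05. FPKM is a fragment count scaled to transcript length and to the mapped fragments of the library. Folds are ratios of mean FPKM, and log2 fold changes are on the log2(FPKM + 1) scale, which understates the change of low genes.

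The filter kept 20 of the 43 members. Calls were made for 24.3% of all genes tested, with 10.8% higher and 13.5% lower. The median log2 fold change was 0.58 over the 20 members and -0.03 over all genes tested. The libraries of the lines did not overlap for 19 of the 20 members, which is 95.0%, against 65.9% of all genes. Both Six2TGC libraries were above both Six2Cre libraries for 14 members (29.5% of all genes) and below them for 5 (36.4%). Without each library in turn, 9 to 13 members were called higher and 2 to 3 lower, with the fewest higher calls without Six2Cre library 1. Of the 17 calls, 10 held in every alternative that tested the gene, and 7 were lost without at least 1 library. In the authors' deposited table, 16 of the 22 members that they tested were significant, 12 of them higher and 4 lower in Six2TGC. The same table marked 13.5% of all genes tested there.

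**Figure D1:**
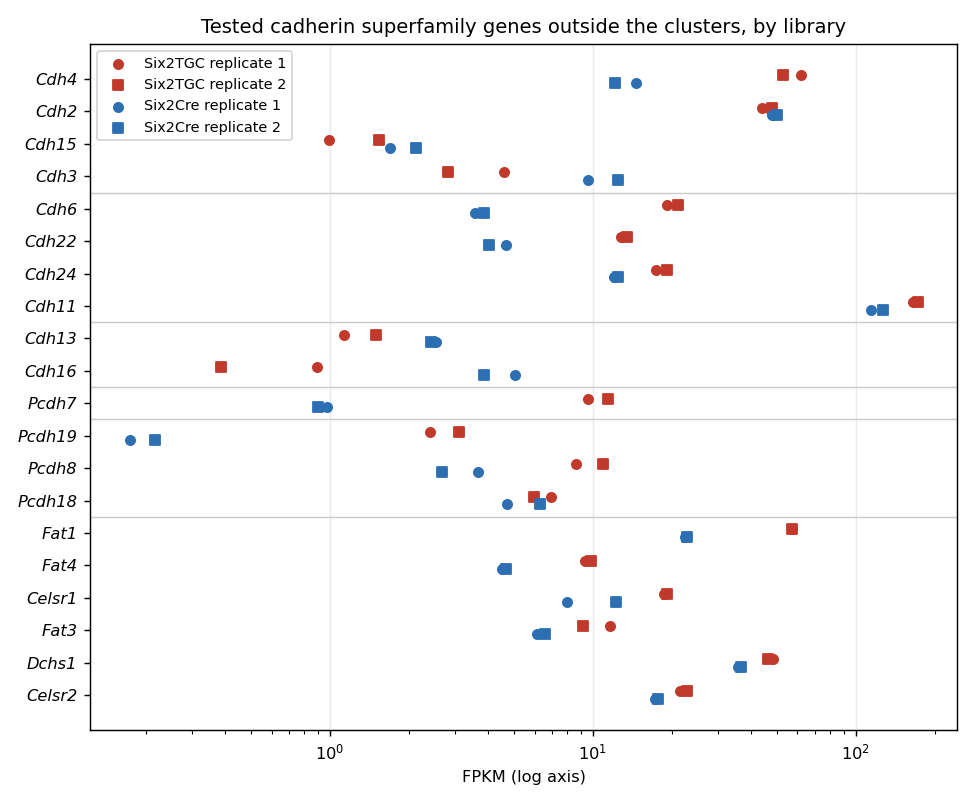
FPKM (log axis) of the 20 tested members outside the clusters, with red points for Six2TGC, blue for Six2Cre, and shapes for replicates; grey lines separate the classes. The points of the lines are apart for 19 members and overlap for Pcdh18.

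The sorted cells held the markers of nephron progenitors. All 12 listed markers were found, and the lowest value of any was 14.2 FPKM, for Meox1 in Six2TGC library 2. Six2, whose regulatory DNA drives GFP-Cre in both lines, was at 749 and 816 FPKM in Six2TGC and at 545 and 533 in Six2Cre. Of the 12 markers, 7 were called lower in Six2TGC and 2 were called higher, with a median log2 fold change of -0.33. Beside these counts and those of the marker lists below, 13.5% of all genes tested were called lower and 10.8% higher. Cited1, which marks the least committed progenitors, was at 109 and 94.6 FPKM in Six2TGC and at 907 and 878 in Six2Cre, 8.77-fold lower in the first (limma adjusted p 3.66e-06), and Meox1 was 3.64-fold lower (1.59e-03). Summed FPKM of 10 early nephron markers was 279 and 279 in Six2TGC against 83.2 and 80.0 in Six2Cre, and 7 of the 8 that were tested were higher. Summed FPKM of 9 stroma markers was 219 and 180 in Six2TGC against 168 and 149 in Six2Cre. Of the 8 that were tested, 3 were higher (Foxd1 1.59-fold, Pdgfra 3.97-fold and Pdgfrb 2.41-fold, limma adjusted p 1.79e-03, 4.81e-03 and 6.36e-03) and Meis1 was lower. The part of these differences in the members' results, the higher mesenchymal and FAT-DCHS members included, was not tested. Six2Cre libraries were read deeper, by 1.85 and 1.88 times Six2TGC library 1 as estimated from low FPKM values, an estimate that rests on a minority of the low genes; total reads are unknown. In bulk RNA, fewer cells of a type and less RNA per cell cannot be told apart.

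Promoters are shown for the 4 called members with the largest changes among those with a RefSeq window. Cdh4 and Cdh16, which changed more than some of these, had no window. No member called lower had one, so all 4 shown were higher in Six2TGC. RefSeq windows of 250 bases before to 50 after the start (build GRCm38.p6) were matched for 28 of the 43 members, and the 4 windows run 5′ to 3′ on the strand of the gene. Pcdh7 is at chr5:57717831-57718130 on the plus strand. Cdh6 is at chr15:13173626-13173925, Pcdh19 at chrX:133688944-133689243 and Cdh22 at chr2:165234688-165234987, all on the minus strand. Capitals mark matches to the searched motifs.
Pcdh7: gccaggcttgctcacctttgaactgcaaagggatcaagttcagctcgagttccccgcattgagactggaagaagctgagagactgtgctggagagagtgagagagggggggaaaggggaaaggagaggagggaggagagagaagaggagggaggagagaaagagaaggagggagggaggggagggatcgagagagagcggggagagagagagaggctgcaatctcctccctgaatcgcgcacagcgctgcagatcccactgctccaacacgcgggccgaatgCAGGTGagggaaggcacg
Cdh6: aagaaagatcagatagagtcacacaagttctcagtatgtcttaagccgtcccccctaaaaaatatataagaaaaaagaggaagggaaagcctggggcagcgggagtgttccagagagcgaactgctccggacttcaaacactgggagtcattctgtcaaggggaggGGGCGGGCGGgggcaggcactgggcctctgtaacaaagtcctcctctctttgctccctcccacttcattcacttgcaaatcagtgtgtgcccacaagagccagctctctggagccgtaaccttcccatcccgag
Pcdh19: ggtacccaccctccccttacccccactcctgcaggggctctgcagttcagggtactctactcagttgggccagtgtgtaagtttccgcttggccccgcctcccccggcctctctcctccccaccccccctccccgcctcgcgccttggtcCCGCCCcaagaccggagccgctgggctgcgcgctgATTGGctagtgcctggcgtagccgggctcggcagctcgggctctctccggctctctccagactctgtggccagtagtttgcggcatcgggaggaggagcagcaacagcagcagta
Cdh22: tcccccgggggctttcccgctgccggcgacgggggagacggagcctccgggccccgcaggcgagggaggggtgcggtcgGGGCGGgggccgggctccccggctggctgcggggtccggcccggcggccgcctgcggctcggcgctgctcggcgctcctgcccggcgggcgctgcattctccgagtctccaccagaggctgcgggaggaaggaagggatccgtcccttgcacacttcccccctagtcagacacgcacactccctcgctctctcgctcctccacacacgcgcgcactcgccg

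The 4 windows differed in base composition, and no searched motif was in all 4. GC content was 59.3% for Pcdh7, 53.0% for Cdh6, 67.7% for Pcdh19 and 76.3% for Cdh22, and the median of all 32851 windows was 52.7%. CpG dinucleotides numbered 11, 8, 18 and 38 in the same order, against a median of 7. The motifs were searched on both strands. The E-box CACCTG, which Snail and ZEB repressors bind, was in the Pcdh7 window as CAGGTG and in 20.2% of all windows. The GC box GGGCGG was in the Cdh6 window as 2 overlapping matches, in the Pcdh19 window as CCGCCC and in the Cdh22 window, and in 35.7% of all. The CCAAT box was in the Pcdh19 window as ATTGG and in 37.4% of all. The TCF/LEF core CTTTGAT and the TATA box TATAAA were in none of the 4 windows, and in 3.73% and 13.6% of all. Among the 12 tested members with a window, 3 held the E-box, 6 the GC box, 4 the CCAAT box, 1 the TATA box and none the TCF/LEF core. Of these 12 members, 10 were called higher in Six2TGC and 0 lower. A match describes letters in the window and is not a site in use.

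Among the 5 type I classical cadherins, Cdh4 was higher in Six2TGC, Cdh3 lower, and Cdh2 and Cdh15 were not called, with a median log2 fold change of -0.23 over these 4. Cdh4 encodes R-cadherin, first known from retina (chr2:179442478-179899375, mm10). It was at 61.9 and 53.0 FPKM in Six2TGC and at 14.5 and 12.1 in Six2Cre. Every Six2TGC value was above every Six2Cre value by a wide margin. The means were 57.5 ± 6.25 and 13.3 ± 1.71 FPKM (SD, n = 2), a ratio of 4.31. The log2 fold change was 2.03 ± 0.114 (SE), with an adjusted p of 5.66e-05 in limma.

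Cdh2 encodes N-cadherin, the neural type I member that mesenchymal cells also carry. It was at 43.8 and 47.8 FPKM in Six2TGC and at 47.8 and 50.3 in Six2Cre. The libraries lie close together, with the upper Six2TGC value just under the lower Six2Cre value. Its log2 fold change was -0.10 ± 0.0802 (SE) with a limma adjusted p of 0.417, and it turned to 0.072 when libraries were scaled to the same sum. A small difference in either direction was not resolved with these 4 libraries.

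Cdh3 encodes P-cadherin, an epithelial type I cadherin (chr8:106510852-106556911). It was at 4.58 and 2.82 FPKM in Six2TGC and at 9.61 and 12.4 in Six2Cre. Both Six2TGC libraries were under both Six2Cre libraries. The mean was 2.97-fold lower in Six2TGC, at 3.70 ± 1.25 against 11.0 ± 1.99 FPKM (SD, n = 2). The log2 fold change was -1.37 ± 0.210 (SE), with an adjusted p of 6.08e-03 in limma.

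Cdh1 encodes E-cadherin, the defining junction protein of epithelium (chr8:106603368-106670246), and its mean was under the filter. It was at 0.211 and 0.188 FPKM in Six2TGC and at 1.44 and 1.53 in Six2Cre. Low as it was, the values did not overlap, and the ratio of means was 7.46 in the direction of Six2Cre. With no filter on low values, where 13.7% of all genes were called, its log2 fold change was -1.05 with a limma adjusted p of 7.01e-03. The authors' deposited table gave it a q of 8.73e-04. Cdh15, the muscle cadherin, was at 0.996 and 1.53 FPKM in Six2TGC and at 1.69 and 2.12 in Six2Cre, with a limma adjusted p of 0.197.

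All 4 tested type II classical cadherins were called higher in Six2TGC, against 10.8% of all genes tested. Their median log2 fold change was 0.97. Cdh6, or K-cadherin, is known from the forming nephron and from the fetal kidney tubule (chr15:13034200-13173639). It was at 19.2 and 21.0 FPKM in Six2TGC and at 3.55 and 3.86 in Six2Cre. The replicates of each line were close, and the lines were far apart. The means were 20.1 ± 1.32 and 3.71 ± 0.220 FPKM (SD, n = 2), a ratio of 5.42. On the log2 scale the change was 2.16 ± 0.107 (SE), with a limma adjusted p of 3.17e-05.

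Cdh22, a cadherin first found in pituitary and brain (chr2:165111507-165234737), was at 12.8 and 13.5 FPKM in Six2TGC and at 4.66 and 4.04 in Six2Cre. Its libraries did not overlap. The ratio of means was 3.03, and the log2 fold change was 1.41 ± 0.114 (SE) with a limma adjusted p of 2.34e-04. Cdh11, the mesenchymal cadherin also called OB-cadherin (chr8:102632995-102785111), had the highest level of any member. It was at 165 and 172 FPKM in Six2TGC and at 114 and 127 in Six2Cre, again without overlap. The means were 169 ± 5.31 and 121 ± 9.33 FPKM (SD, n = 2), a ratio of 1.40, and the log2 fold change was 0.48 ± 0.0811 (SE) with a limma adjusted p of 5.85e-03.

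Cdh24, a type II cadherin that binds catenins (chr14:54631992-54641364), was at 17.4 and 19.1 FPKM in Six2TGC and at 12.1 and 12.5 in Six2Cre. The lines were separate, with a ratio of means of 1.48. Its log2 fold change was 0.53 ± 0.0926 (SE) and its limma adjusted p 6.65e-03. The call for Cdh11 was lost without Six2Cre library 1, where the log2 fold change was 0.40. That for Cdh24 was lost without either Six2Cre library, at 0.51 and 0.56.

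The other type II members were low. Cdh5 encodes VE-cadherin, the endothelial junction protein (chr8:104088916-104144502). It was at 0.267 and 0.105 FPKM in Six2TGC and at 0.918 and 1.12 in Six2Cre, 5.47-fold lower in the first, and under the filter. With no filter, its log2 fold change was -0.77 with a limma adjusted p of 0.0195, and the authors' deposited table gave a q of 0.0110. Cdh10, Cdh12, Cdh18 and Cdh20 had no value above 0.212 FPKM in any library. Cdh7, Cdh8, Cdh9 and Cdh19 were listed at 0 in all 4 libraries.

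The makeup of classical cadherin RNA differed between the lines in level and in shares. Summed over types I and II, the libraries held 326 and 332 FPKM in Six2TGC and 211 and 227 in Six2Cre. Cdh11 held the largest share in every library, at 51.3 ± 0.991% in Six2TGC and 55.1 ± 1.30% in Six2Cre (SD, n = 2). Cdh4 held 17.5 ± 2.11% and 6.12 ± 1.11%, and Cdh2 held 13.9 ± 0.693% and 22.4 ± 0.418%, in the same order. So Cdh4 was above Cdh2 in both Six2TGC libraries and below it in both Six2Cre libraries. Cdh6 held 6.11 ± 0.326% and 1.69 ± 0.00927%, and Cdh3 held 1.13 ± 0.393% and 5.01 ± 0.638%. The share of Cdh24 was 5.55 ± 0.286% and 5.61 ± 0.165%, which overlapped. Shares of a whole move against each other, and they are a description: an exact permutation test of 2 against 2 libraries cannot go below p = 0.333.

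**Figure D2:**
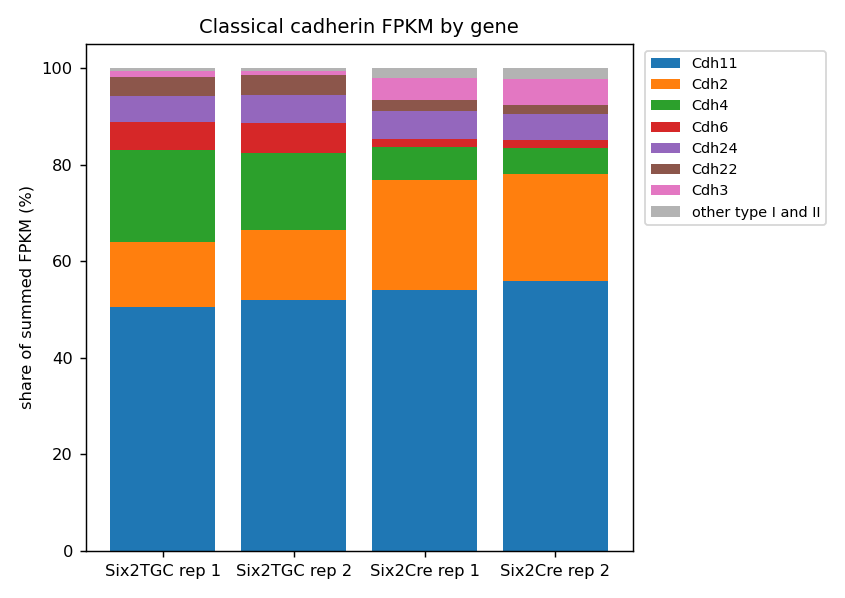
Share (%) of the summed FPKM of type I and II classical cadherins held by each gene, 1 bar per library; replicates are shown side by side. The Cdh4 and Cdh6 segments are wider in both Six2TGC bars, and the Cdh2 and Cdh3 segments in both Six2Cre bars.

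Both tested cadherins outside the classical types were called lower in Six2TGC, against 13.5% of all genes tested. Cdh16 encodes Ksp-cadherin, a cadherin of kidney tubule epithelium (chr8:104601915-104624396). It was at 0.896 and 0.386 FPKM in Six2TGC and at 5.06 and 3.87 in Six2Cre. Neither Six2TGC library came near the Six2Cre libraries, and the gene passed the filter only through Six2Cre. The mean was 6.97-fold lower, at 0.641 ± 0.360 against 4.47 ± 0.845 FPKM (SD, n = 2), and the log2 fold change was -1.75 ± 0.206 (SE) with a limma adjusted p of 1.27e-03.

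Cdh13, or T-cadherin, is held in the membrane by a lipid anchor and has no catenin-binding tail (chr8:118283755-119323448). It was at 1.13 and 1.49 FPKM in Six2TGC and at 2.54 and 2.41 in Six2Cre, without overlap. The mean was 1.89-fold lower, and the log2 fold change was -0.59 ± 0.162 (SE) with a limma adjusted p of 0.0346. This call was lost without Six2TGC library 1 (-0.48) and without either Six2Cre library (-0.57 and -0.62). It was also lost with no filter (limma adjusted p 0.0519) and with libraries scaled to the same sum (-0.48, limma adjusted p 0.0601), and the authors' deposited table gave a q of 0.0932. Cdh17 and Cdh23 had no value above 0.141 FPKM, and Cdh26 was listed at 0 in all libraries.

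Summed markers of ureteric epithelium, of proximal tubule and podocyte, and of endothelium were also lower in Six2TGC. Early nephron markers, given above, summed the other way. The summed FPKM of 10 ureteric epithelium markers was 18.9 and 14.4 in Six2TGC and 28.0 and 36.0 in Six2Cre. Here 7 markers were below in both Six2TGC libraries and 1 above. The largest part of the Six2Cre sum was Krt18, at 12.2 and 17.5 FPKM there and at 2.82 and 1.79 in Six2TGC. The marker above was Wnt11, 4.10-fold higher in Six2TGC (limma adjusted p 1.54e-03). Markers of proximal tubule and podocyte, 7 in number, summed to 4.02 and 4.41 in Six2TGC and to 21.5 and 12.1 in Six2Cre. Of these, 6 were below. Slc34a1 alone was at 14.6 and 6.24 FPKM in Six2Cre and at 0.0872 and 0.364 in Six2TGC. Markers of endothelium, also 7, summed to 19.8 and 13.2 against 21.8 and 19.8, with 5 below. Over all genes tested, 36.4% were below in this way and 29.5% above. Most of these markers were under the filter. Of the 4 ureteric markers tested, 2 were called lower and 1 higher. Of the 3 tubule and podocyte markers tested, 2 were called lower, and of the 2 endothelial markers tested none was called. Calls over all genes tested were 13.5% lower and 10.8% higher. None of these markers was listed at 0 in all 4 libraries. Blood and immune markers summed the other way, to 7.97 and 7.11 FPKM in Six2TGC against 3.92 and 5.24 in Six2Cre. Those of neuron and glia summed to 6.57 and 6.06 against 14.2 and 14.8. The part of these cells in the values of Cdh1, Cdh3, Cdh5, Cdh13 and Cdh16 was not tested.

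**Figure D3:**
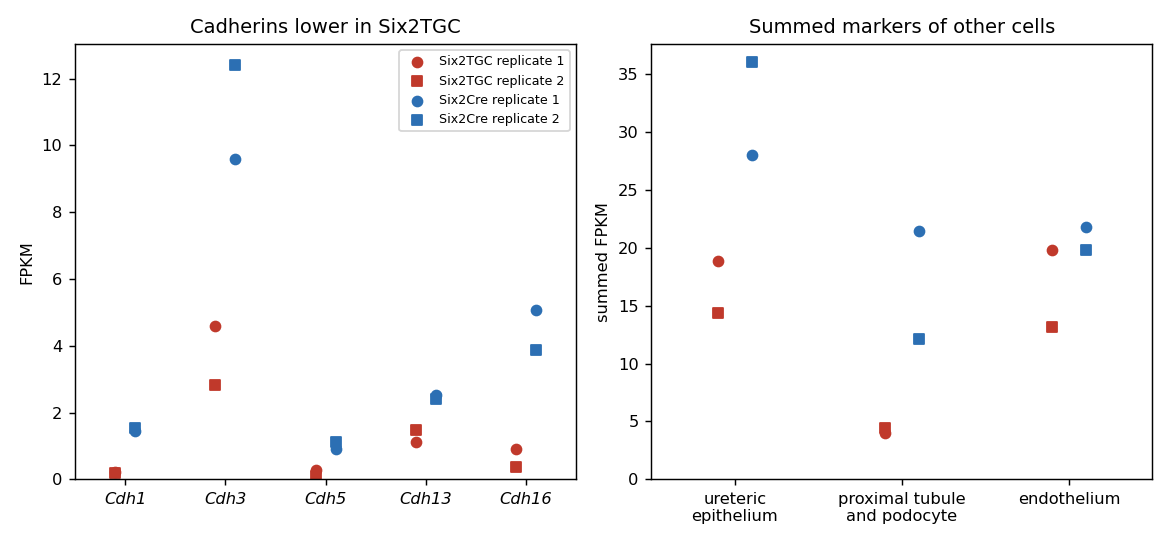
Left, FPKM of 5 cadherins that were lower in both Six2TGC libraries (Cdh1 and Cdh5 were under the filter). Right, summed FPKM of marker genes of 3 other cell types whose sums were lower in Six2TGC. Sums of early nephron, stroma and blood markers, not shown, were higher in Six2TGC, and those of progenitor and neuron markers lower. Colours are lines and shapes are replicates. The Six2TGC points are the lower ones in every column, with endothelium close to touching (19.8 and 19.8).

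Of the 12 protocadherins outside the clusters, 4 were tested, and 3 of these were called higher in Six2TGC, against 10.8% of all genes tested. Pcdh7 is a delta-1 protocadherin (chr5:57718021-58132240), a class with a long extracellular part, and in Xenopus it holds ectoderm cells together. It was at 9.61 and 11.4 FPKM in Six2TGC and at 0.974 and 0.898 in Six2Cre. Its libraries stood far apart, and its log2 fold change was the highest of the 20 members. The means were 10.5 ± 1.26 and 0.936 ± 0.0540 FPKM (SD, n = 2), a ratio of 11.2. The log2 fold change was 2.57 ± 0.142 (SE), with a limma adjusted p of 4.69e-05.

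Pcdh19 and Pcdh8 are delta-2 protocadherins. Pcdh19, whose human gene is known from an inherited epilepsy (chrX:133582861-133688993), was at 2.40 and 3.11 FPKM in Six2TGC and at 0.173 and 0.215 in Six2Cre. Both Six2Cre libraries were far under both Six2TGC libraries, and the ratio of means was 14.2. The Six2Cre mean was 0.194 FPKM, near the floor, and the gene passed the filter only through Six2TGC. Its log2 fold change was 1.65 ± 0.180 (SE) with a limma adjusted p of 8.96e-04, and with a pseudocount of 0.1 it was 3.27. The gene is X-linked, and Six2TGC library 1 differed from the other 3 in sex-linked RNA. Xist was at 0.0107 FPKM there against 75.7, 56.7 and 60.6, and the Y-linked Ddx3y was at 12.7 there and listed at 0 in the others. Without that library the log2 fold change of Pcdh19 was 1.78, and without Six2TGC library 2 it was 1.51.

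Pcdh8, or paraxial protocadherin, guides cell movements in Xenopus gastrulation (chr14:79766772-79771312). It was at 8.65 and 10.9 FPKM in Six2TGC and at 3.64 and 2.66 in Six2Cre. The libraries did not overlap, and the ratio of means was 3.10. The log2 fold change was 1.38 ± 0.165 (SE) with a limma adjusted p of 1.35e-03. Pcdh18, another delta-2 member, was at 6.94 and 5.96 FPKM in Six2TGC and at 4.69 and 6.27 in Six2Cre. These values overlapped, and the limma adjusted p was 0.366.

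The remaining protocadherins outside the clusters were at or near 0. Pcdh17 was at 0.496 and 0.388 FPKM in Six2TGC and at 0.133 and 0.211 in Six2Cre. Pcdh1, Pcdh9, Pcdh10, Pcdh11x, Pcdh12, Pcdh15 and Pcdh20 had no value above 0.345 FPKM. With no filter on low values, none of these 8 genes had a limma adjusted p under 0.05, and that of Pcdh17 was 0.0815.

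All 6 tested FAT, DCHS and CELSR genes were called higher in Six2TGC, against 10.8% of all genes tested. Their median log2 fold change was 0.75. The calls for Celsr1, Celsr2, Dchs1 and Fat3 were each lost without at least 1 library, as given below. The class, 8 rows in all, summed to 167 and 164 FPKM in Six2TGC and to 93.9 and 101 in Six2Cre. Fat1 encodes a giant cadherin that podocytes need for their foot processes in mice (chr8:44950208-45052257). It was at 57.0 and 57.0 FPKM in Six2TGC and at 22.4 and 22.9 in Six2Cre. Replicates were nearly equal in each line. The ratio of means was 2.52, and the log2 fold change was 1.29 ± 0.0732 (SE) with a limma adjusted p of 5.11e-05.

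Fat4 and Dchs1 encode binding partners of the FAT-DCHS system, whose loss in mice gives kidney defects. Fat4 (chr3:38886940-39011983) was at 9.37 and 9.81 FPKM in Six2TGC and at 4.52 and 4.67 in Six2Cre. The lines were far apart beside the spread of replicates, with a ratio of means of 2.09 and a log2 fold change of 0.92 ± 0.110 (SE, limma adjusted p 1.35e-03). Dchs1 (chr7:105752989-105787550) was at 48.5 and 46.2 FPKM in Six2TGC and at 35.5 and 36.5 in Six2Cre. It too did not overlap, and the ratio was smaller, at 1.31. On the log2 scale the change was 0.38 ± 0.0746 (SE) with a limma adjusted p of 9.96e-03. The call for Dchs1 was lost without either Six2Cre library (0.37 and 0.40), and the authors' deposited table gave a q of 0.0771.

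Fat3, known from neurons of the retina in mice (chr9:15910193-16378231), was at 11.6 and 9.19 FPKM in Six2TGC and at 6.15 and 6.58 in Six2Cre. Its ratio of means was 1.63 and its log2 fold change 0.62 ± 0.131 (SE), with a limma adjusted p of 0.0139. The values did not overlap, and the call was lost without either Six2Cre library, at 0.58 and 0.66. Fat2 was under the filter, at 0.380 and 0.358 FPKM in Six2TGC and at 0.0145 and 0.0335 in Six2Cre. With no filter its log2 fold change was 0.42, with a limma adjusted p of 0.0182.

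Celsr1 and Celsr2 encode the seven-pass cadherins of planar polarity. Celsr1 (chr15:85898758-86033777) was at 18.7 and 19.2 FPKM in Six2TGC and at 7.99 and 12.3 in Six2Cre. The Six2Cre libraries were further from each other than the Six2TGC libraries were, and the lines did not overlap. The ratio of means was 1.87, and the log2 fold change was 0.87 ± 0.184 (SE) with a limma adjusted p of 0.0214. It was 0.89 and 0.85 without Six2TGC library 1 and 2, where the call was lost, and 0.59 without Six2Cre library 1, where it held.

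Celsr2 (chr3:108390848-108415494) was at 21.5 and 22.7 FPKM in Six2TGC and at 17.2 and 17.7 in Six2Cre. These values did not overlap, and the ratio of means was 1.27. Its log2 fold change was 0.32 ± 0.0838 (SE) with a limma adjusted p of 0.0294. The call was lost without Six2TGC library 2 (0.29), Six2Cre library 1 (0.31) and Six2Cre library 2 (0.34), and the q of the authors' deposited table was 0.148. Celsr3 had no value above 0.102 FPKM.

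**Figure D4:**
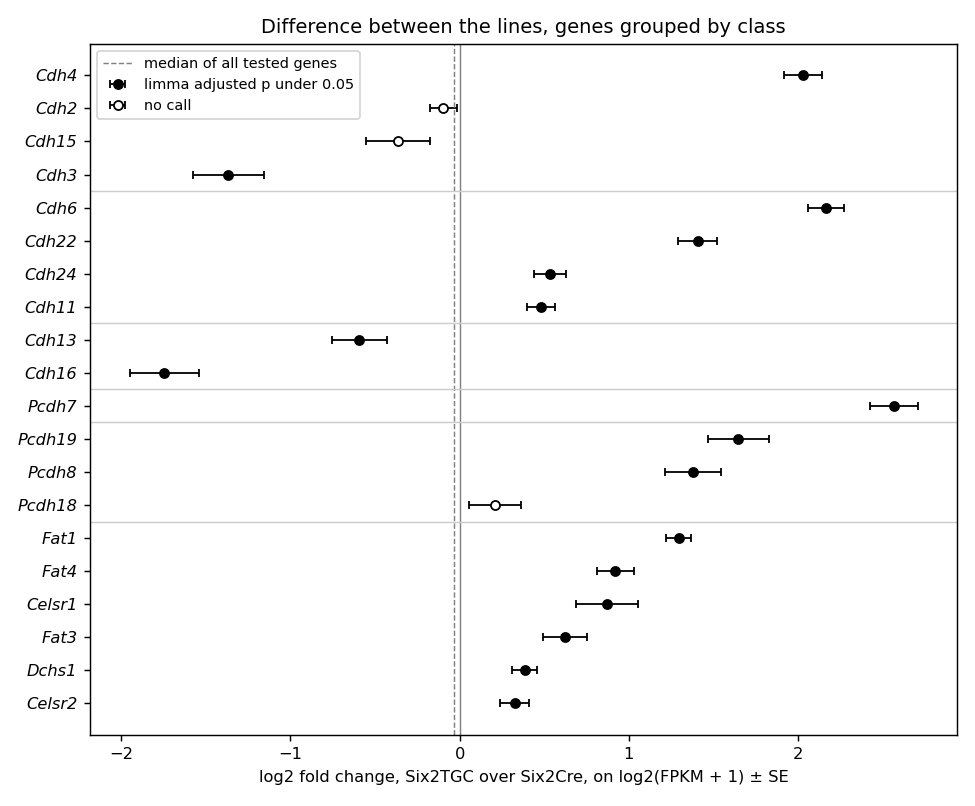
Log2 fold change of Six2TGC over Six2Cre on log2(FPKM + 1), with bars for the SE, for the 20 tested members grouped by class; filled points have a limma adjusted p under 0.05 and the dashed line is the median of all tested genes (-0.03). The points run from -1.75 for Cdh16 to 2.57 for Pcdh7, and 14 filled points lie to the right of 0.

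The clustered protocadherins give neurons their surface codes through promoter choice among many first exons, and the exons of the Pcdha and Pcdhg clusters are each joined to shared constant exons. The deposited table gives all 59 rows the same locus, chr18:36930285-37841872, which is 911588 bases long. Through the constant exons, rows of Pcdha and of Pcdhg can share reads, and the split between such rows is uncertain. Whether Pcdhb rows share reads is not known here, and rows of this locus are not taken as independent. No Pcdha row passed the filter, and 15 of 22 Pcdhb and 18 of 22 Pcdhg rows did. Among these 33 rows, 12 were called higher in Six2TGC and none lower, against 10.8% and 13.5% of all genes tested. At an unadjusted p under 0.05 limma gave 14 higher and 0 lower. The median log2 fold change was 0.28, with 31 rows above 0 and 2 below. These counts depend on the filter. Some called rows, Pcdhb8 and Pcdhb5 among them, passed it through Six2TGC, with Six2Cre means of 0.733 and 0.638 FPKM. The libraries did not overlap for 66.7% of the 33 rows, close to the 65.9% of all genes. Both Six2TGC libraries were above both Six2Cre libraries for 22 rows (29.5% of all genes) and below them for 0 (36.4%).

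The called rows changed with the tool and the libraries. The count of 12 was between 1 and 8 without each library in turn, with 8 and 7 without Six2TGC library 1 and 2, 1 without Six2Cre library 1 and 4 without Six2Cre library 2. In the authors' deposited table, none of the 37 clustered rows tested was significant, and 1 had a p under 0.05. Rows were also added up within each cluster, an alternative chosen after the data were seen. Pcdhb then summed to 44.0 and 37.4 FPKM in Six2TGC and to 23.0 and 26.9 in Six2Cre, with a log2 fold change of 0.69 ± 0.112 (SE) and a limma adjusted p of 5.40e-03. The Pcdhg sum was 172 and 173 FPKM against 119 and 128, at 0.48 ± 0.0727 (SE) and a limma adjusted p of 3.96e-03. Pcdha, not tested, summed to 0.917 and 0.878 against 0.372 and 0.514 FPKM.

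Pcdhgc3, a C-type gamma protocadherin found widely outside neurons, held most of the clustered RNA. It was at 126 and 124 FPKM in Six2TGC and at 86.2 and 93.9 in Six2Cre, between 71.7% and 73.5% of Pcdhg FPKM in every library. The means were 125 ± 1.57 and 90.1 ± 5.40 FPKM (SD, n = 2), without overlap. On the log2 scale the change was 0.47 ± 0.0760 (SE) with a limma adjusted p of 5.05e-03. The call was lost without Six2Cre library 1 (0.41), and the q of the authors' deposited table was 0.134.

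Other gamma rows were far lower. Pcdhgb7 was at 8.64 and 9.89 FPKM in Six2TGC and at 5.18 and 5.34 in Six2Cre, with a log2 fold change of 0.71 and a limma adjusted p of 5.25e-03. Pcdhgb6 was at 6.77 and 6.14 against 3.84 and 3.46 FPKM, at 0.68 with a limma adjusted p of 8.68e-03. Neither row overlapped between the lines. The Pcdhgb7 call was lost without Six2Cre library 1 (0.69), that of Pcdhgb6 without either Six2Cre library (0.74 and 0.62). Pcdhga4 and Pcdhgb4, at log2 fold changes of 0.66 and 0.65, were called too. The first was lost in 3 of the 4 leave-outs, which gave 0.52 to 0.80, and the second in all 4, at 0.56 to 0.75.

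Pcdhb9 had the largest difference of the called clustered rows. It was at 5.37 and 3.81 FPKM in Six2TGC and at 1.12 and 1.57 in Six2Cre, a ratio of means of 3.42. The Six2TGC libraries differed from each other but stayed above both Six2Cre libraries. The log2 fold change was 1.25 ± 0.189 (SE) with a limma adjusted p of 3.82e-03, and the call held in every limma alternative that tested the row, while the q of the authors' deposited table was 0.654. Pcdhb17, the Pcdhb row of highest mean FPKM, was not called, at 5.66 and 4.07 against 3.76 and 4.06 FPKM with a limma adjusted p of 0.314. Pcdhb8, Pcdhb5 and Pcdhb11 were called at 0.85, 0.69 and 0.68. The call for Pcdhb8 was lost without Six2Cre library 1 (0.71), and each of the others in 3 of 4 leave-outs, at 0.54 to 0.73 for Pcdhb5 and 0.47 to 0.76 for Pcdhb11.

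Pcdha rows were near 0, with 6 of 15 listed at 0 in all libraries. The highest was Pcdhac2, a C-type alpha row, at 0.386 and 0.372 FPKM in Six2TGC and at 0.196 and 0.0653 in Six2Cre. Clustered rows of the other direction were picked after their values were seen, and both were under the filter. For Pcdha4, Six2Cre values were 0.0703 and 0.240 FPKM, and those of Six2TGC were 0.00509 and 0. Pcdhgb8 was at 0.290 and 0.181 FPKM in Six2TGC and at 1.03 and 1.34 in Six2Cre, and its q in the authors' deposited table was 0.733.

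**Figure D5:**
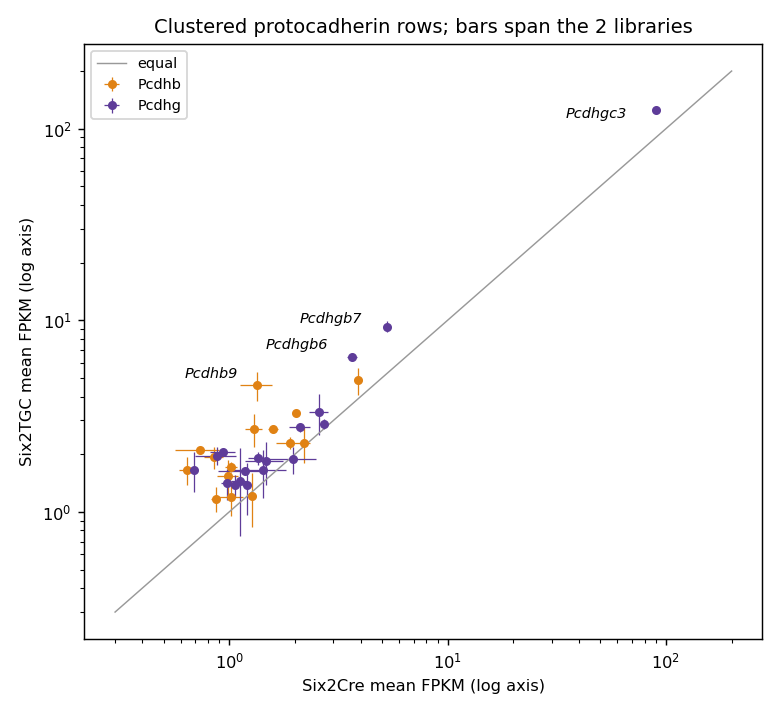
Mean FPKM in Six2TGC against Six2Cre (both log axes) for the 33 clustered rows with a mean of at least 1 FPKM, in orange for Pcdhb and violet for Pcdhg; bars span the 2 libraries of a line and the grey line marks equal values. Of the 33 points, 31 have a positive log2 fold change, and Pcdhgc3 stands alone at the upper right.

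Genes that work with cadherins were compared as lists, whose counts stand beside the 10.8% of all genes tested that were called higher and the 13.5% called lower. Of 14 catenins and other cadherin tail or nectin partners, 11 were tested, and 4 were higher in Six2TGC and none lower, with a median log2 fold change of 0.22. Nectin-1 (Pvrl1), an adhesion protein that starts cadherin junctions, differed by 1.00 with a limma adjusted p of 3.63e-03. Afadin (Mllt4), which ties nectins to actin, differed by 0.64 with a limma adjusted p of 1.72e-03. Beta-catenin (Ctnnb1), which binds cadherin tails and also carries Wnt signals, was at 407 and 414 FPKM in Six2TGC and at 335 and 350 in Six2Cre, with a log2 fold change of 0.26 and a limma adjusted p of 0.0240. Delta-catenin (Ctnnd2) differed by 0.71 with a limma adjusted p of 0.0290. The call for Ctnnb1 was lost without any 1 of the 4 libraries (0.23 to 0.29), and that for Ctnnd2 in 3 of the 4 leave-outs (0.56 to 0.78).

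Planar polarity partners of the CELSR proteins showed 5 higher calls among 10 tested, none lower, and a median of 0.30. Prickle1 and Vangl1 differed by 0.63 and 0.58, Vangl2 by 0.56 and Dvl3 by 0.41 on the log2 scale, with limma adjusted p of 0.0286, 0.0274, 6.65e-03 and 8.29e-03. All 4 calls were lost without at least 1 library: Prickle1 at 0.42 to 0.66, Vangl1 at 0.46 to 0.70, Vangl2 at 0.47 and Dvl3 at 0.37 to 0.45. The count of 5 was 1 without either Six2Cre library and 3 without Six2TGC library 1. Of 7 partners of FAT and DCHS, Fjx1, a relative of the fly kinase Four-jointed, was the single call, at 0.75 with a limma adjusted p of 0.0394, and 1 of 7 is near the 10.8% of all genes called higher. It was lost in 3 of the 4 leave-outs, at 0.44 to 0.79.

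Snai1 encodes Snail, a repressor of the E-cadherin gene, and was at 11.5 and 10.8 FPKM in Six2TGC and at 3.39 and 3.16 in Six2Cre. The lines did not overlap. Its log2 fold change was 1.51 with a limma adjusted p of 1.77e-04, and it was called in every leave-out. Of the 6 repressors of cadherin genes, 4 were tested, and Snai2 (0.54, limma adjusted p 0.0397) and Zeb1 (0.30, 0.0458) were the other higher calls. Both were lost in 3 of the 4 leave-outs, at 0.33 to 0.62 and 0.23 to 0.32. The count of 3 was 1 without either Six2Cre library and 2 without either Six2TGC library.

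Of 7 genes for cadherin cleavage, 3 were higher in Six2TGC and none lower, with a median of 0.06. Mmp14, a membrane metalloprotease, differed by 0.64 with a limma adjusted p of 2.19e-03. Adam10, which cuts cadherins at the cell surface, differed by 0.43 (limma adjusted p 0.0123), and Ncstn, a gamma-secretase subunit, by 0.28 (0.0422). Mmp14 was called in every leave-out. Adam10 was lost without either Six2Cre library (0.37 and 0.49), and Ncstn in 3 of the 4 leave-outs (0.23 to 0.33), so that the count was 1 without either Six2Cre library and 2 without Six2TGC library 1.

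Of 12 regulators of the protocadherin clusters, which include Ctcf and the cohesin genes, 1 was lower in Six2TGC and none higher, no larger a share than the 13.5% of all genes called lower. That gene was the X-linked Smc1a, a cohesin subunit, at -0.27 with a limma adjusted p of 0.0347. The median of the list was -0.21, against -0.03 over all genes tested. Both Six2TGC libraries were below both Six2Cre libraries for 10 of the 12 (36.4% of all genes) and above them for 0 (29.5%). The Smc1a call was lost in 3 of the 4 leave-outs, at -0.29 to -0.24, and with libraries scaled to the same sum (-0.10, limma adjusted p 0.336) or by a trimmed mean (-0.24, limma adjusted p 0.0502). Without Six2TGC library 2 the list had 2 calls.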

How the data were processed

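Poly(A) RNA-seq of 4 libraries of GFP-sorted nephron progenitors, 2 per line, was used as deposited. The submitters' processing notes name HISAT2, Cuffdiff and the build mm10; of versions, annotation and strand handling, the sources used here give nothing. In the table the authors deposited, values are FPKM per gene and library, with mean FPKM per line, and the p-value, q-value and test statistic (a score) of their own comparison, per the file headers. No read counts were used here, so no count test was run and depth is known only as relative values estimated from low FPKM. All 24339 rows were read through a map of column to sample; 0 columns belonged to other samples. In the table, 1 row was empty of values and was left out. No library repeated another (0 rows of equal value above 0 in any pair).

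Computed from these were log2(FPKM + 1), a filter that kept genes averaging at least 1 FPKM, and a limma fit (version 3.58.1 in R 4.3.3, with trend and robust empirical Bayes) with the line as the only term, two-sided, adjusted by Benjamini-Hochberg over all genes tested at 0.05. The fit was tested on simulated data; where spreads were drawn from the fitted genes it gave more false calls than the nominal rate, so borderline calls carry more doubt. The members and lists were chosen with earlier results of these data known. Any member outside the clusters may be named, as may the 2 rows of highest mean in each cluster, up to 4 called rows per cluster and up to 4 called genes per partner list. Of 124 listed partner and marker symbols, 123 were found. Alternatives were pseudocounts of 0.1 and 0.5, no filter, a mean FPKM of at least 5, 3 scalings, no trend with no robust option, the replicate block, each library left out, and the authors' test. Promoters are RefSeq windows of GRCm38.p6. Leaving out 1 library leaves a line with a lone library, which is then assumed to vary like the other line.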

Additional observations from a re-analysis of the deposited data

How the results depend on the processing

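Of the 17 calls outside the clusters, 10 held in every alternative that tested them (Cdh3, Cdh4, Cdh6, Cdh16, Cdh22, Fat1, Fat4, Pcdh7, Pcdh8 and Pcdh19). Pcdh7 and Pcdh19 passed the filter only through Six2TGC, and Cdh16 only through Six2Cre. With a library left out in turn, all genes called were 1022 to 2801 (2900 with all 4), with 514 to 1251 higher and 508 to 1550 lower. Members outside the clusters were 9 to 13 higher and 2 to 3 lower, and clustered rows 1 to 8. Catenin partners called were 2 to 4, planar polarity partners 1 to 5, FAT-DCHS partners 0 to 1, repressors 1 to 2, cleavage genes 1 to 3 and cluster regulators 0 to 2. In the authors' deposited table, 1637 genes were significant, 844 higher and 793 lower, with 0 clustered rows, 3 planar polarity partners, 1 repressor and 0 cluster regulators. Scaling libraries to the same sum moved the median of all genes from -0.03 to 0.12; it gave 2738 higher and 856 lower calls, 2 lower members, 3 FAT-DCHS partners and 0 cluster regulators, and turned the log2 fold change of Cdh2 to 0.072. Trimmed mean scaling gave 2 FAT-DCHS partners and 0 cluster regulators, and quantile normalization 2 FAT-DCHS partners. With a mean FPKM of at least 5, there was 1 lower member, 3 clustered rows and 2 FAT-DCHS partners. With no filter on low values, planar polarity partners were 3, FAT-DCHS partners 0, repressors 1 and cluster regulators 0. With neither trend nor robust option these were 3, 0, 1 and 0, and cleavage genes 1. Clustered rows summed within clusters, an alternative chosen after seeing the data, gave 2 calls. Deviations of same-numbered libraries correlated at -0.04 across genes. This rests on a single difference within each line, so it cannot show whether these libraries share more than a number. With the replicate block, lower members were 2 (Cdh13 was lost, limma adjusted p 0.0578), clustered rows called 7, repressors 1 and cluster regulators 0. For each of these, the cause was not tested. With 2 libraries a line and no read counts, differences of low genes are the least certain.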
